A study of Mus musculus with 49 samples.

Results

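The mitosis genes described here are 49 protein-coding genes whose products assemble the spindle, drive entry into and exit from mitosis, hold and separate the chromosomes and divide the cell. They were chosen by gene symbol, and all 49 have a row in each of the 4 deposited RNA-seq tables, which list 20489 genes. The samples are 49 libraries in 16 groups of mouse embryonic stem cells (TC-1, strain 129S6/SvEvTac), made to ask how the chromatin protein Trim24 limits the tumour suppressor p53. In most of them both endogenous copies of Trim24 carry a degron tag, FKBP12(F36V)-V5 at the C terminus, so that the compound dTAG13 (500 nM) removes the protein, and p53 was activated with the DNA-damaging drug doxorubicin (1 µM). In the time course, doxorubicin was given for 2, 4, 8 or 12 h together with dTAG13 for the same hours (Trim24-degraded, 3 libraries at each time) or alone (Trim24-expressing, 3 at each time), and 3 uninduced Trim24-expressing libraries served as 0 h. A separate uninduced experiment compared 3 Trim24-degraded libraries, given dTAG13 for 4 h, with 3 Trim24-expressing libraries, all without doxorubicin. The RING experiment, named after the ubiquitin ligase domain of Trim24, set 4 ligase-null libraries, with cysteines of that domain mutated at the endogenous gene and no dTAG13, against 4 Trim24-degraded and 4 Trim24-expressing libraries, all at 4 h of doxorubicin. Wild-type cells gave 2 libraries with doxorubicin for 4 h and 2 without. The edited lines were grown from picked clones, and the ligase-null cells, whose genotype label reads degron-tagged Trim24, are a line of their own, so the mutation and the line cannot be told apart. In the uninduced experiment the Trim24-expressing libraries carry a label that says p53 was activated, but they are titled untreated and were used as such.

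Mitosis runs on a small set of protein machines whose messages accumulate in late S and G2 phase and decline after division. Cyclin B with Cdk1 starts it, the Aurora and Polo kinases build the spindle, the spindle checkpoint holds anaphase until each kinetochore is attached, and the anaphase-promoting complex then has securin and the cyclins destroyed. In dividing cells p53 is known to lower many of these messages through its target p21 and the DREAM complex, which binds a promoter element called the CHR (TTTGAA), often beside CCAAT boxes that bind NF-Y. Bulk RNA-seq cannot tell fewer cells in G2 and mitosis from less RNA per cell, and this holds for every result that follows. Doxorubicin was the only activator of p53 in these libraries, none lacked p53, and the time course has no untreated library after 0 h. Activation below therefore means doxorubicin treatment. The parts of p53, of other effects of the drug and of time in culture cannot be told apart.

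Promoters are shown for 5 members among those that fell most on p53 activation and for Spc25, a member that rose and was chosen for display after its values were seen. Each line gives 150 bases before and 50 after the annotated start, 5′ to 3′ on the gene's strand, from RefSeq on build GRCm38.p6, and the capitals mark TTTGAA and CCAAT.
Aurka (chr2:172370521-172370720, minus strand): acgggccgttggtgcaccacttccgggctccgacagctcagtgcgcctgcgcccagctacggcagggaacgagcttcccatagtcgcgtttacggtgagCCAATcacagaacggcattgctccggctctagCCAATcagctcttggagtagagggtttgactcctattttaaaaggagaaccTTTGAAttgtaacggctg
Plk1 (chr7:122159285-122159484, plus strand): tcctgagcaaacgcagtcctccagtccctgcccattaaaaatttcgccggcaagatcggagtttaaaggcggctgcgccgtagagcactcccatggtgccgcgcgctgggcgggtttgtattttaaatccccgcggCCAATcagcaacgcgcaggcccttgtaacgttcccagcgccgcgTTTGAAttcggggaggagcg
Prc1 (chr7:80294301-80294500, plus strand): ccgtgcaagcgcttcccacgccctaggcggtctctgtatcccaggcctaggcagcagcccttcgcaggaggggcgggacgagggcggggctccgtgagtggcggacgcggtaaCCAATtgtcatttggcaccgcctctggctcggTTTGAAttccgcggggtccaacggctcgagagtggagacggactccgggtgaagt
Ect2 (chr3:27153829-27154028, minus strand): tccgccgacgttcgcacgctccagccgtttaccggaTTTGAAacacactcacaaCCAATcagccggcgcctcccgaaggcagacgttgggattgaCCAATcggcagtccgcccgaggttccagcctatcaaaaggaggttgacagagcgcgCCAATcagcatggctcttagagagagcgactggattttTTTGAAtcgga
Mybl2 (chr2:163054485-163054684, plus strand): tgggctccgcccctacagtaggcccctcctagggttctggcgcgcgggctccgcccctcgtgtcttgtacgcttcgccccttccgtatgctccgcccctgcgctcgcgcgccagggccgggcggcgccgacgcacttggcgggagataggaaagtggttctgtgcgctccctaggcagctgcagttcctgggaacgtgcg
Spc25 (chr2:69206164-69206363, minus strand): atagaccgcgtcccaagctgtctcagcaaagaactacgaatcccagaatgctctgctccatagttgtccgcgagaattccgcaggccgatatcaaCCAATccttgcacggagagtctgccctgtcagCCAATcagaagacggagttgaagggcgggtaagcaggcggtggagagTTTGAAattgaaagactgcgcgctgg
In Aurka and Plk1 the TTTGAA begins 33 and 31 bases after the start, downstream of the CCAAT boxes. In Spc25 it begins 25 bases after the start, with CCAAT at −55 and −23. Prc1 has CCAAT at −37 and TTTGAA at −5, and Ect2 has TTTGAA at −114 and 40. The Mybl2 window holds neither motif. RefSeq gave a window of 250 bases before to 50 after the start for 40 of the 49 members, not for Aurkb, Ccna2, Kif20a, Incenp, Spc24, Tpx2, Cdc25c, Foxm1 and Smc4. Searched on both strands, TTTGAA was present in 27 of these 40 members (67.5%) and in 17.4% of 16188 genes with a window, and within the last 100 bases of the window in 62.5% and 4.42%. CCAAT was present in 75% of members and 42.3% of all genes, and both motifs in the same window in 60% and 7.05%. The related TTCGAA was in 10% of members and 2.17% of genes, and the E2F-like motifs TTCCCGC and TTTGGCG were in 5% of members each, against 7.25% and 2.22% of genes. The members with TTTGAA and the 13 without it had a median log2 fold change of −0.84 and −0.68 at 8 h of activation. The element was therefore common among the members. It was present in Spc25, which rose. The window of Mybl2, which fell furthest by 12 h, held none of the motifs searched, and other forms of these sites were not searched. Both genes were singled out, and the part of any motif in the changes was not tested.

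Reads over genes ranged from 14422098 to 35185256 per library (median 19520026), and levels are given in CPM, read counts scaled to a common library size. The lowest level of any member in any library was 14.2 CPM, for Cdc25b. Mdm2, the p53 target that restrains p53, checks the labels: it was 929.6, 980.1 and 989 CPM at 4 h of activation and 186, 177 and 180.3 CPM at 0 h, and 178, 186 and 189 CPM in the libraries with the conflicting label. Degradation acts on the Trim24 protein, so the Trim24 RNA does not check it. In Trim24-expressing cells that RNA went down on activation, from 207 to 213 CPM at 0 h to 119 to 123 at 4 h, 61.9 to 72.0 at 8 h and 67.5 to 71.3 at 12 h. In the RING experiment it was 95.5 to 99.8 CPM in ligase-null, 125 to 135 in Trim24-degraded and 121 to 129 in Trim24-expressing cells. RNA-seq does not give the protein level, and the part of these changes was not tested. The 10 pluripotency markers were all detected, and their summed level moved with activation: 5867 to 5968 CPM at 0 h, 3324 to 3443 at 4 h, 1493 to 1622 at 8 h and 1072 to 1170.0 at 12 h in Trim24-expressing cells. Of the 8 fibroblast markers, Col3a1, Lum, Dcn and Postn stayed under 1 CPM in all libraries, while Col1a1 reached 32.9 CPM, Thy1 21.6 and Pdgfrb 9.15. Their summed level was 19.7 to 23.3 CPM at 0 h, 34.9 to 36.5 at 8 h, then 50.9 to 64.4 at 12 h in Trim24-expressing cells. The summed 6 primitive endoderm markers were higher in both groups of the separate uninduced experiment (637 to 721 CPM) than at 0 h (59.7 to 63.2 CPM). Summed trophoblast markers were 36.7 to 40.1 CPM at 0 h and 97.9 to 104 CPM at 12 h. The part of these cell states in the results was not tested. Exon overlap limits some values: 11 members share exon bases with another protein-coding gene, most in Kif20a (29.3%, with Cdc23), Ube2c (22.8%, with Tnnc2) and Kif4 (15.1%, with Pdzd11). Per the methods the counting used default settings apart from the annotation and the grouping by gene name, and no strand setting was named.

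On p53 activation in Trim24-expressing cells the mitosis genes went down late rather than at once. Their summed level was 12103 to 12478 CPM at 0 h, 11313 to 11966 at 2 h, 9809 to 9961 at 4 h, 6331 to 6987 at 8 h and 7306 to 7911 at 12 h. No library at any later time reached the lowest at 0 h, and the 12 h libraries all lay above the 8 h ones. Members are said to have risen or fallen where limma gave an adjusted p under 0.01 over all genes tested together with a change of 0.75 or more on the log2 scale, the thresholds of the study. By that rule none changed at 2 h. At 4 h, 5 members fell and 1 rose, against 5.8% and 12.9% of all genes tested. At 8 h, 24 fell and 1 rose (18.3% and 27% of genes), and at 12 h, 22 fell and 3 rose (22.9% and 30.3%). By the adjusted p alone, 38 of 49 members were lower and 1 higher at 4 h (25.6% and 23.6% of genes), 44 and 3 at 8 h (37.2% and 37.6%), and 38 and 4 at 12 h (38% and 40.1%). The median log2 fold change of the members was −0.24 at 4 h, −0.74 at 8 h and −0.61 at 12 h, and over all genes tested it lay between −0.01 and 0.04. The 4 comparisons with 0 h share those 3 libraries. The size of the fall depends on the scaling: at 8 h the member median was −0.40 after quantile normalization, with 11 members fallen, and −0.95 after centring each library on its median, and those scalings moved the median of all genes by −0.21 in the same comparison.

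At 2 h the few differences were small. No member passed both thresholds in limma (3.74% of genes did) or in limma-voom on the recovered reads, and 1 higher and 14 lower members had an unadjusted p under 0.05. Counts at an unadjusted p, here and below, stand without the share of all genes and are not a result about the members. By the adjusted p alone Prc1 and Ect2 were lower and Spc25 higher (3.64% and 5.89% of genes in those directions). Leaving out single libraries put that count between 1 and 8, and Spc25 was in it each time that only 1 member remained.

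**Figure D1:**
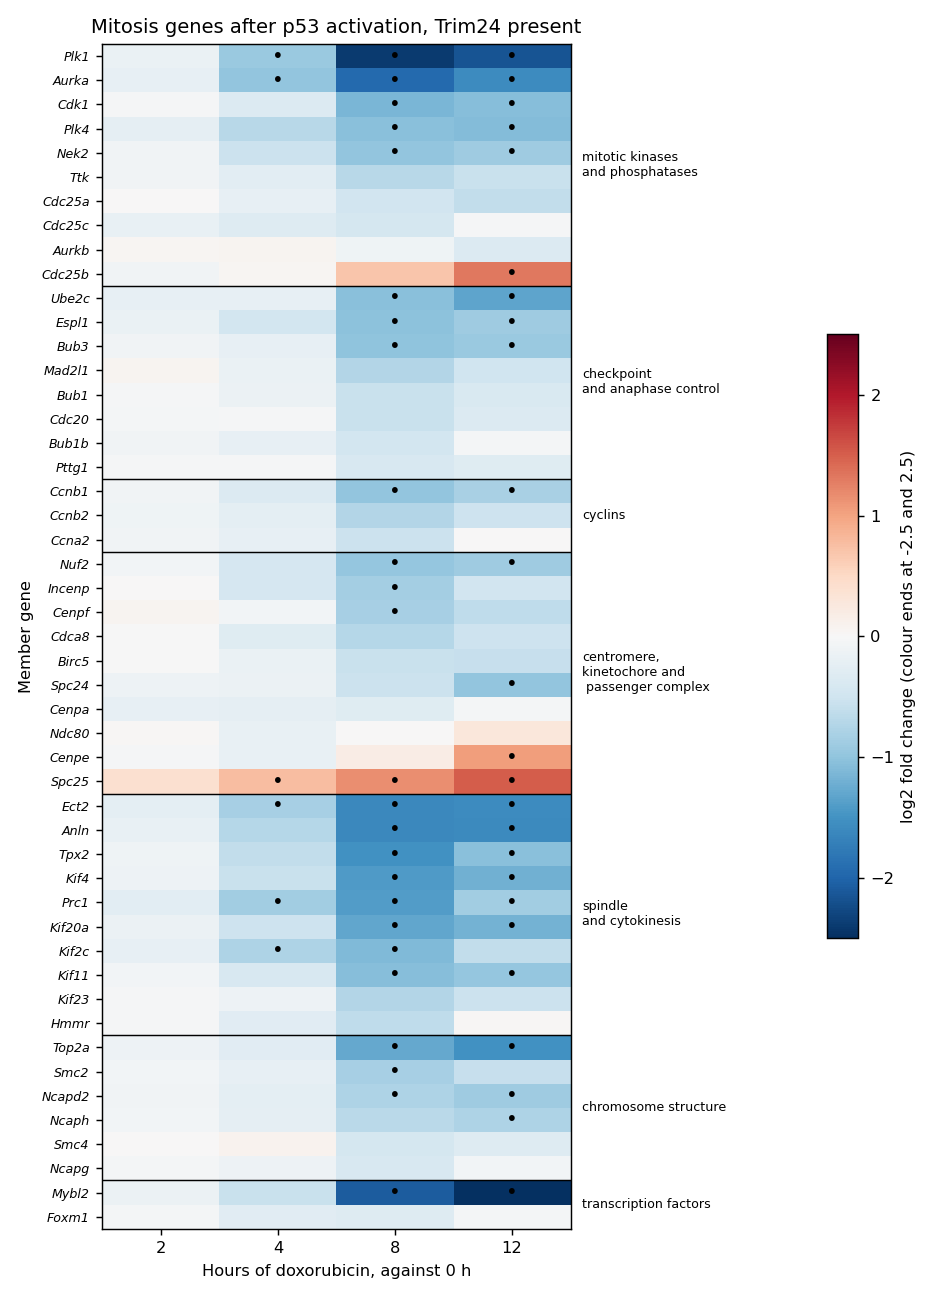
Log2 fold change of each of the 49 members (rows, grouped by role) at 2, 4, 8 and 12 h of doxorubicin against 0 h in Trim24-expressing cells, with a dot where both thresholds were passed. Blue spreads through nearly all rows between 4 and 8 h, while Spc25, Cdc25b and Cenpe turn red.

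The spindle and cytokinesis genes had a median log2 fold change of −0.59 at 4 h, −1.35 at 8 h and −1.01 at 12 h over 10 members, of which 3, 8 and 7 fell. Prc1, which bundles the antiparallel microtubules of the spindle midzone, had 97.4, 99.6 and 103 CPM at 4 h and 184, 175 and 188 CPM at 0 h, a log2 fold change of −0.86 (SE 0.05, adjusted p = 4.73e-12). Ect2, the exchange factor that switches on RhoA for the cleavage furrow, had 136, 152 and 147 CPM at 4 h and 265, 243 and 271 CPM at 0 h, a log2 fold change of −0.84 (SE 0.05, adjusted p = 3.79e-11). In both genes every library at 4 h lay far under the lowest at 0 h, and by 8 h Ect2 was at 91.5, 81.3 and 80.3 CPM, a log2 fold change of −1.62. Anln, which encodes the actin scaffold anillin of the same furrow, passed the adjusted p but not the fold at 4 h (−0.72) and fell at 8 and 12 h (−1.61 and −1.58). Tpx2, the activator of Aurora A on spindle microtubules, followed the same course with −0.61, −1.50 and −1.04 at 4, 8 and 12 h.

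Among the motors, Kif2c, which takes microtubules apart at the centromere, was the only one to fall by 4 h, with 114, 119 and 114 CPM against 195, 187 and 211 CPM at 0 h and a log2 fold change of −0.76 (SE 0.05, adjusted p = 6.48e-11). That call rests on the margin, since without replicate 3 of 0 h the value was −0.72. The chromokinesin Kif4, the midzone motor Kif20a and the spindle-separating motor Kif11 fell by 8 h, with log2 fold changes of −1.42, −1.29 and −1.07, and remained past both thresholds at 12 h. Kif23, the motor subunit of centralspindlin, was lower by the adjusted p alone (−0.73 at 8 h), as was Hmmr, a spindle-pole adaptor, at −0.63.

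The mitotic kinases Aurka and Plk1 had the largest falls at 4 h, and the 10 kinases and phosphatases had a median log2 fold change of −0.84 at 8 h, with 5 fallen. Aurka, which encodes Aurora A, had 215, 216 and 228 CPM at 0 h, 185, 197 and 188 at 2 h, 108, 111 and 112 at 4 h, 57.5, 55.9 and 58.2 at 8 h, then 77.6, 70.2 and 71.9 at 12 h. No library at 4 h or later overlapped 0 h. Its log2 fold change was −0.995 (SE 0.04, adjusted p = 2.48e-13) at 4 h and −1.58 (SE 0.06, adjusted p = 7.42e-14) at 12 h. Plk1, the Polo kinase of mitotic entry and spindle assembly, had 105, 120.2 and 99.5 CPM at 0 h, 102, 97.8 and 87.6 at 2 h, 58.4, 52.6 and 58.8 at 4 h, 19.9, 19.1 and 21.8 at 8 h, then 25.4, 21.2 and 25.2 at 12 h. Its log2 fold change was −0.93 (SE 0.07, adjusted p = 8.13e-10) at 4 h, −2.39 at 8 h, the lowest of all members then, and −2.16 (SE 0.08, adjusted p = 9.58e-14) at 12 h. Plk4, which licenses centriole duplication, and Nek2, which splits the centrosomes, fell by 8 h (−1.04 and −0.99). So did Cdk1, the catalytic partner of the mitotic cyclins, with 163, 144 and 151 CPM at 8 h and 329, 336 and 346 CPM at 0 h (−1.14). Aurkb, the kinase of the chromosomal passenger complex, differed little: it had 86.6, 86.3 and 91.1 CPM at 8 h and 92.1, 95.03 and 97.7 CPM at 0 h, a log2 fold change of −0.11 with a 95% interval of −0.25 to 0.03, and was lower by the adjusted p alone at 12 h (−0.35). Ttk, the kinase Mps1 of the spindle checkpoint, was lower by the adjusted p alone at 8 h (−0.69). Of the Cdc25 phosphatases that activate Cdk1, Cdc25a and Cdc25c were lower by the adjusted p alone at 8 h (−0.48 and −0.45) and Cdc25b was higher.

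**Figure D2:**
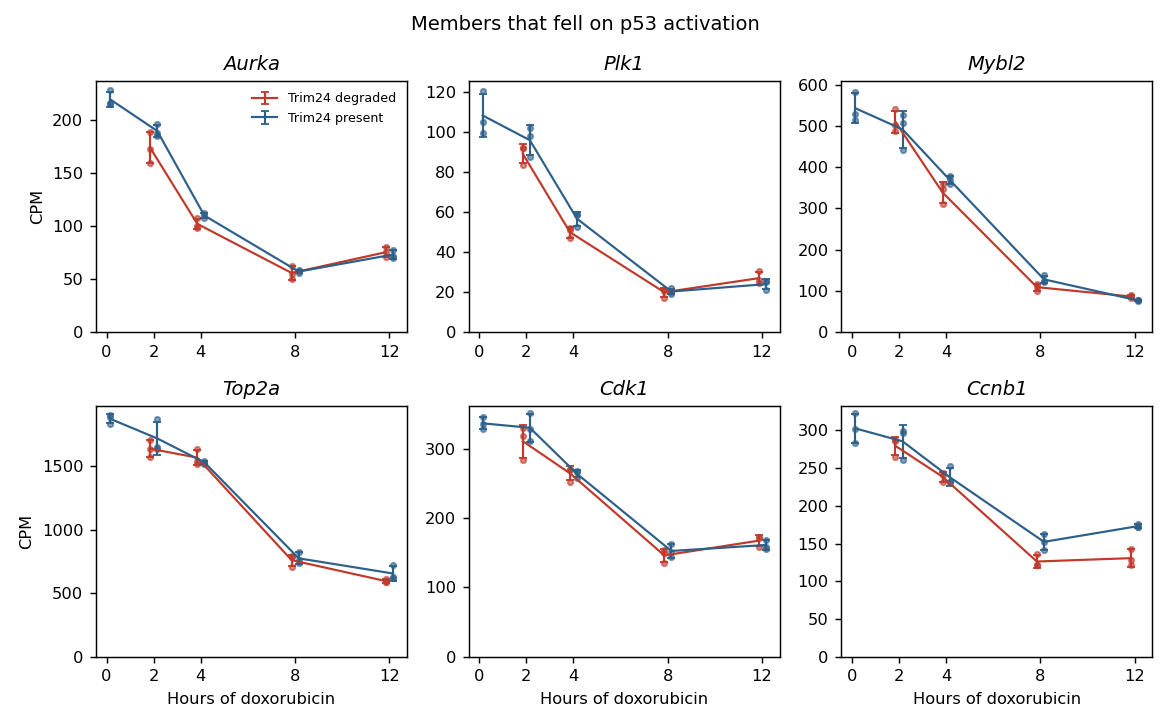
CPM of Aurka, Plk1, Mybl2, Top2a, Cdk1 and Ccnb1 (vertical axes from 0) against hours of doxorubicin, with each library as a point and lines through the group means with SD (n = 3) for Trim24-degraded (red) and Trim24-expressing (blue) cells. Each gene is lower at 8 h than at 0 h, and Mybl2 and Top2a are still going down at 12 h.

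At 8 h the 3 cyclins had a median log2 fold change of −0.74 with 1 fallen, and the 8 genes of the checkpoint and anaphase control had −0.65 with 3 fallen. None of either group fell at 4 h. Ccnb1, the B-type cyclin of mitotic entry, had 162, 142 and 152 CPM at 8 h and 302, 283 and 322 CPM at 0 h (−0.99), and at 12 h its log2 fold change was −0.80 (SE 0.06, adjusted p = 8.65e-10). Ccnb2 missed the fold threshold by little at 8 h (−0.74), and Ccna2, the cyclin of S and G2 phase, was lower then by the adjusted p alone (−0.53). Ube2c, the ubiquitin-conjugating enzyme of the anaphase-promoting complex, had 65.00, 54.3 and 71.4 CPM at 12 h and 161, 169 and 146 CPM at 0 h, a log2 fold change of −1.32 (SE 0.09, adjusted p = 1.90e-09). Espl1, which encodes separase, and the checkpoint gene Bub3 also fell at 8 h (−1.02 and −1.005) and at 12 h (−0.89 and −0.92). Cdc20, the activator through which the checkpoint acts, had 303, 325 and 293 CPM at 0 h, 312, 304 and 287 at 4 h, then 198, 206 and 225 at 8 h, overlapping 0 h at 4 h (−0.03) and lying below it at 8 h (−0.55). Pttg1, which encodes securin, and Bub1b, which encodes BubR1, stood at −0.41 and −0.45 at 8 h, and Bub1b at 0.05 after quantile normalization. At 12 h Cdc20 was at −0.35 but at 0.17 after quantile normalization, so its direction there depends on the scaling, and the same is true of Bub1 (−0.37, or 0.09).

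Among the genes of chromosome structure, Top2a, the topoisomerase that untangles sister chromatids, is also the protein that doxorubicin acts on. It had 1887, 1832 and 1901 CPM at 0 h, 1519, 1544 and 1528 at 4 h, 826, 736 and 762 at 8 h, then 721, 627 and 619 at 12 h. None of these groups overlapped, and its log2 fold change was −0.29 (SE 0.03, adjusted p = 5.53e-08) at 4 h and −1.52 (SE 0.06, adjusted p = 2.49e-13) at 12 h. Of all 6 genes of this group 3 fell at 8 h, with a median of −0.72. Among the condensin genes, Smc2 and Ncapd2 fell at 8 h (−0.84 and −0.77), and Ncapd2 and Ncaph at 12 h (−0.89 and −0.78). Without replicate 2 of 8 h the value of Ncapd2 was −0.74, under the threshold. Smc4 and Ncapg were at −0.44 and −0.40 at 8 h, values that became 0.06 and 0.07 after quantile normalization.

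The 10 genes of the centromere, kinetochore and passenger complex had a median of −0.56 at 8 h, with 3 fallen and 1 risen, and 2 of the 3 members that rose by 12 h belong to them. Spc25, a subunit of the Ndc80 complex that grips microtubules, had 88.8, 78.1 and 86.3 CPM at 0 h, 104, 105 and 126 at 2 h, 146, 144 and 144 at 4 h, 209.7, 177 and 184 at 8 h, then 263, 225 and 234 at 12 h. Already at 2 h its 3 libraries lay above all 3 at 0 h. Its log2 fold change was 0.78 (SE 0.05, adjusted p = 9.76e-11) at 4 h and 1.51 (SE 0.07, adjusted p = 1.00e-12) at 12 h. Without replicate 2 of 0 h the 4 h value was 0.72, under the fold threshold. Its partners in the same complex did otherwise. Nuf2 fell at 8 h (−0.96) and Spc24 at 12 h (−0.99, SE 0.08, adjusted p = 5.85e-09). Ndc80 had 117, 101 and 103 CPM at 8 h and 107, 103 and 109 CPM at 0 h (0.01, 95% interval −0.13 to 0.14) and was higher by the adjusted p alone at 12 h (0.27). Cenpe, the kinetochore motor that brings chromosomes to the metaphase plate, had 209.7, 203 and 210.3 CPM at 0 h, 175, 182 and 193 at 4 h, 255, 222 and 235 at 8 h, then 459, 409 and 411 at 12 h. It was lower by the adjusted p alone at 4 h (−0.18), at 0.19 at 8 h, where median centring turned it to −0.02, and rose at 12 h with a log2 fold change of 1.04 (SE 0.06, adjusted p = 2.39e-11). Cenpf, an outer kinetochore protein, and Incenp, the scaffold of the passenger complex, fell at 8 h (−0.84 and −0.85), and Birc5, which encodes survivin, and Cdca8, which encodes borealin, were lower by the adjusted p alone (−0.57 and −0.72). Cenpa, the histone variant that marks centromeres, was at −0.30 at 8 h, and 0.04 after quantile normalization.

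The third riser, Cdc25b, had 23.1, 22.1 and 24.8 CPM at 0 h, 23.9, 22.8 and 25.7 at 4 h, 38.6, 36.3 and 39.3 at 8 h, then 57.4, 63.5 and 55.8 at 12 h. At 4 h its libraries overlapped those of 0 h, at 8 h it was higher by the adjusted p alone (0.70), and at 12 h its log2 fold change was 1.32 (SE 0.07, adjusted p = 1.80e-11).

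The 2 transcription factors went different ways. Mybl2 (B-Myb), which joins the MuvB core to switch on G2 genes, had 529.7, 583 and 515 CPM at 0 h, 507, 527 and 441 at 2 h, 378, 359 and 369.6 at 4 h, 122, 124 and 139 at 8 h, then 75.03, 76.98 and 77.9 at 12 h. It overlapped 0 h at 2 h but at no later time. Its log2 fold change was −0.55 (SE 0.04, adjusted p = 2.04e-09) at 4 h and −2.08 at 8 h, and at 12 h it was the lowest of all members at −2.82 (SE 0.06, adjusted p = 4.72e-17). Foxm1, the forkhead factor of the same gene programme, had 38.03, 37.7 and 36.1 CPM at 0 h, 30.5, 30.03 and 28.5 at 8 h, then 32.7, 38.02 and 36.99 at 12 h. It was lower by the adjusted p alone at 8 h (−0.33), and overlapped 0 h at 12 h, with a log2 fold change of −0.06 and a 95% interval of −0.21 to 0.10.

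The largest of the member medians between successive times, −0.50, was that between 4 and 8 h. These steps are unequal, since 4 to 8 h spans 4 h and 2 to 4 h spans 2 h. Between 2 and 4 h, Aurka and Plk1 fell and no member rose (−0.78 and −0.75, with 2.11% of genes fallen and 7.69% risen). By the adjusted p alone 22 were lower and 1 higher (16.2% and 15.3% of genes). Without replicate 2 of 4 h, or replicate 1 or 2 of 2 h, the value of Plk1 was −0.70, −0.71 or −0.74 and only Aurka was left past both thresholds. Between 4 and 8 h, 13 members fell and none rose (7.7% and 16.6% of genes), led by Mybl2 (−1.53), Plk1 (−1.47), Top2a (−0.98) and Aurka (−0.94). By the adjusted p alone 41 were lower and 4 higher (29.9% and 31.5%). After quantile normalization 4 members fell, the median was −0.24, and Bub1b, Ccna2, Hmmr and Ncapg turned to values above 0. The calls of Bub3, Cenpf and Ect2 were at the margin: without replicate 2 of 8 h Bub3 was at −0.75 and lost its call, Cenpf lost its call without replicate 2 or 3 of 8 h or replicate 3 of 4 h, and Ect2 without replicate 3 of 8 h or replicate 2 of 4 h.

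From 8 to 12 h the direction turned, with a member median of 0.20 (all genes −0.01) and 39 of 49 members above 0. Only Cenpe rose past both thresholds (0.85, SE 0.08, adjusted p = 4.88e-27) and no member fell (4.18% and 2.24% of genes), but by the adjusted p alone 17 members were higher and 5 lower, against 16.8% and 14.6% of genes. The higher ones included Hmmr (0.67), Cdc25b (0.62), Ccna2 (0.54), Prc1 (0.53), Kif2c (0.49), Tpx2 (0.47), Bub1b (0.40) and Aurka (0.35), and the lower ones were Mybl2 (−0.73), Spc24, Ube2c, Top2a and Aurkb. Hmmr had 394, 352 and 372 CPM at 0 h, 259, 235 and 228 at 8 h, then 415, 361 and 370.4 at 12 h, so the 12 h libraries cleared the 8 h ones and overlapped those of 0 h. Ccna2 did the same, with 270.4, 263 and 273 CPM at 0 h, 193, 177 and 188 at 8 h, then 278, 258 and 273 at 12 h. For 12 h against 0 h, the 95% intervals of the log2 fold change were −0.11 to 0.12 for Ccna2, −0.10 to 0.17 for Hmmr and −0.17 to 0.07 for Bub1b, and those of Cdc25c, Cenpa, Foxm1 and Ncapg also included 0. Prc1, Tpx2 and Aurka were still past both thresholds below 0 h.

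**Figure D3:**
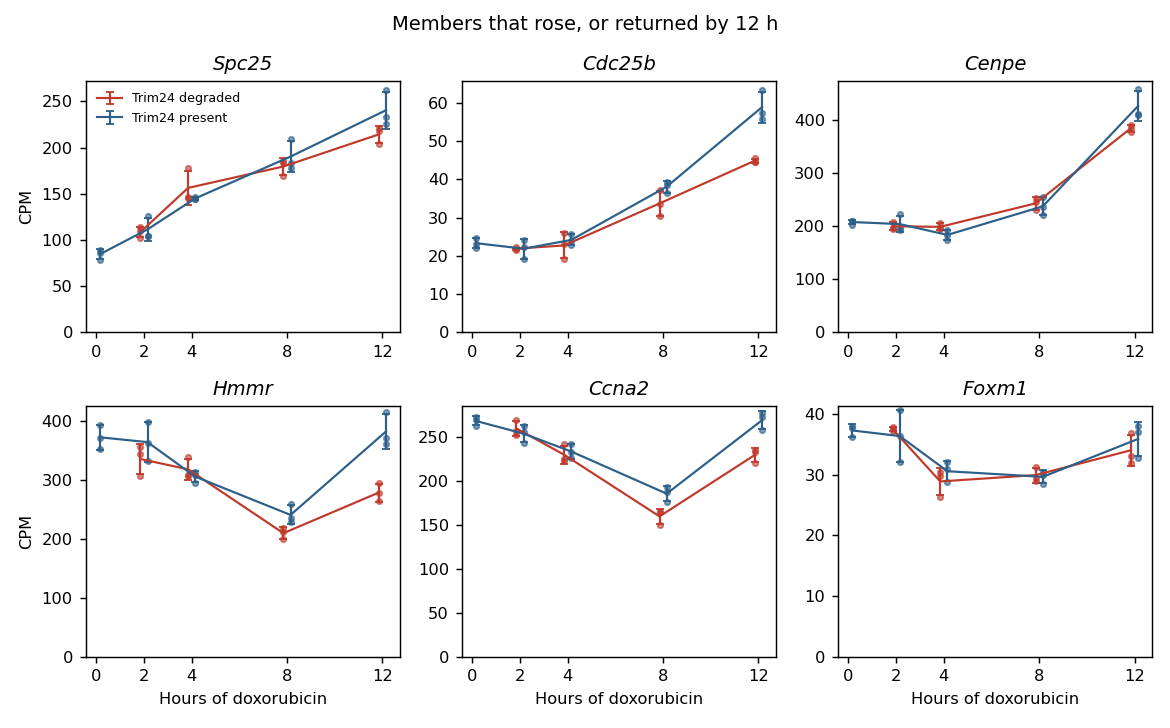
CPM (vertical axes from 0) against hours of doxorubicin for Spc25, Cdc25b and Cenpe, which rose in Trim24-expressing cells, and for Hmmr, Ccna2 and Foxm1, whose 12 h libraries overlapped 0 h; points are libraries and lines are group means with SD (n = 3), red for Trim24-degraded and blue for Trim24-expressing cells. In Hmmr and Ccna2 the blue line dips at 8 h and is back near its start at 12 h, and the red line is under it at both times.

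In wild-type cells, whose Trim24 has no tag, 4 h of doxorubicin lowered Aurka and Plk1 by the adjusted p alone. No member passed both thresholds in limma (7.99% of genes higher and 2.27% lower) or in limma-voom, 2 higher and 26 lower had an unadjusted p under 0.05, and by the adjusted p alone 17 were lower and 2 higher (13.2% and 14.2% of genes). Aurka had 135 and 131 CPM with doxorubicin and 194 and 210.5 CPM without it (−0.60, SE 0.09, adjusted p = 3.33e-11), and Plk1 67.7 and 68.9 CPM and 103 and 104 CPM (−0.60, SE 0.09, adjusted p = 3.94e-11). Plk4 (−0.54), Prc1 (−0.49), Ect2 (−0.46) and Kif2c (−0.43) came next, and Spc25 was again higher, with 152 and 136 CPM and 116 and 97.2 CPM (0.44, SE 0.09, adjusted p = 1.70e-06). In these 7 genes, named for the size of their change, both treated libraries lay outside the range of both untreated ones. With 2 libraries a group this is common: 28.2% of all genes were lower in both treated libraries and 33.1% higher. Among the 49 members 35 were lower and 3 higher in this way. Without replicate 1 of the treated cells none passed the adjusted p, and without replicate 2 there were 6, in fits where the lone treated library was assumed to vary like the untreated pair. The wild-type and degron cells were not compared in 1 test.

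Loss of Trim24 moved no mitosis gene past both thresholds at any time, and Mad2l1 was the one that most often passed the adjusted p alone. In uninduced cells 0 members passed the adjusted p in limma or limma-voom, 3 higher ones had an unadjusted p under 0.05, and 0.0781% of all genes passed both thresholds. Under doxorubicin 0 members passed both thresholds at 2, 4, 8 or 12 h (0.338%, 1.15%, 1.58% and 4.11% of genes) or in the RING experiment (1.15%), in limma and in limma-voom. An unadjusted p under 0.05 was found for 1 higher and 1 lower member at 2 h, 6 and 8 at 4 h, 1 and 14 at 8 h, 4 and 26 at 12 h, and 14 and 4 in the RING experiment. The share of all genes at that level is not set beside these counts, so they show nothing particular to the members. Aurka and Plk1, with the largest falls at 4 h of activation, had 108, 101 and 98.2 and 52.1, 46.8 and 50.8 CPM in Trim24-degraded cells at 4 h, against 108, 111 and 112 and 58.4, 52.6 and 58.8 CPM in Trim24-expressing cells. Their differences were −0.11 and −0.18 on the log2 scale, with 95% intervals of −0.22 to 0.0006 and −0.31 to −0.05, so differences as large as the activation effect lie outside both. The Plk1 libraries of the degraded cells nevertheless all lay below the others.

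**Figure D4:**
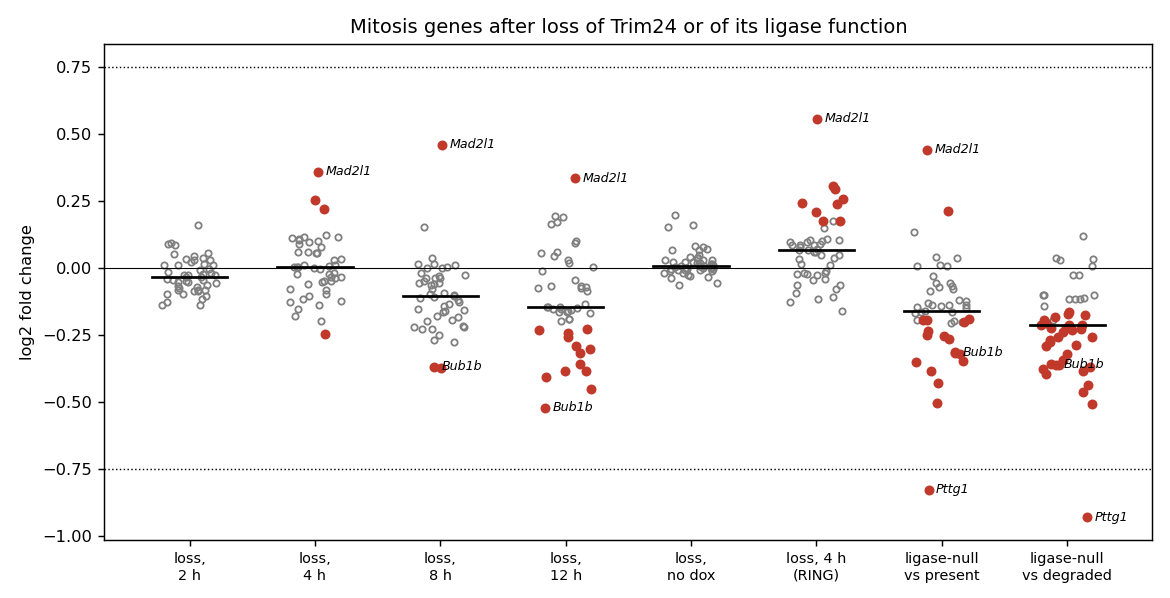
Log2 fold change of the 49 members (points) on loss of Trim24 at 2, 4, 8 and 12 h of doxorubicin, without doxorubicin and in the RING experiment, and in ligase-null cells against Trim24-expressing and against Trim24-degraded cells; red points have an adjusted p under 0.01, bars are medians and dotted lines mark 0.75 in each direction. Mad2l1 is the highest point at 4, 8 and 12 h and in the RING experiment, and Pttg1 is the only point past a dotted line.

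Mad2l1, on chromosome 6 of GRCm38 from 66535390 to 66547220, encodes the checkpoint protein Mad2 that holds Cdc20 inactive. At 4 h it had 86.2, 93.9 and 86.5 CPM in Trim24-degraded cells and 66.6, 71.2 and 70.02 CPM in Trim24-expressing cells, a log2 fold change of 0.36 (SE 0.06, adjusted p = 9.00e-05). At 8 h the values were 57.9, 67.97 and 66.1 CPM and 50.03, 45.1 and 44.1 CPM in the same order (0.46, SE 0.09, adjusted p = 1.32e-05), and at 12 h 66.6, 67.5 and 71.5 CPM and 58.6, 53.1 and 51.4 CPM (0.33, SE 0.07, adjusted p = 8.49e-04). In the separate RING experiment it had 93.3, 89.2, 102 and 97.5 CPM in Trim24-degraded and 62.7, 63.3, 68.7 and 64.7 CPM in Trim24-expressing cells (0.55, SE 0.05, adjusted p = 5.09e-10). In these 4 comparisons every degraded library lay above every expressing one. At 2 h and in uninduced cells the groups overlapped: the log2 fold change was 0.09 (95% interval −0.06 to 0.24) at 2 h, and without doxorubicin the libraries had 82.7, 87.6 and 93.7 CPM and 74.5, 84.8 and 77.3 CPM (0.16, adjusted p = 0.51). Whether the effect of Trim24 loss on Mad2l1 differs between 2 and 4 h did not pass the test either (adjusted p = 0.28). On activation alone Mad2l1 was lower by the adjusted p alone at 8 h (−0.73). The time-course calls depend on how the variance is modelled: without a trend and robust fit the adjusted p was 0.038, 0.052 and 0.026 at 4, 8 and 12 h, and without replicate 3 of the Trim24-expressing cells at 12 h it was 0.0105 there.

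By the adjusted p alone, 3 members were higher and 1 lower on Trim24 loss at 4 h (2.71% and 2.81% of genes) and 1 higher and 2 lower at 8 h (2.34% and 4.13%). Beside Mad2l1 these were Ect2 and Ncapg, higher at 4 h (0.25 and 0.22), Ube2c, lower at 4 h (−0.25), which was also lower at 8 h (−0.38), and Bub1b, lower at 8 h (−0.37). Leaving out replicate 3 of the degraded libraries, or replicate 1 or 3 of the expressing ones, brought the 4 h count to 1, 1 and 2 members, and without replicate 3 of the expressing cells at 8 h only 1 member was left there, with an adjusted p of 0.0289 for Bub1b.

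At 12 h the difference became broader: 13 members were lower and 1 higher by the adjusted p alone in Trim24-degraded cells, against 11.5% and 8.47% of genes. Bub1b, which encodes the checkpoint kinase-like protein BubR1, had 179.8, 195 and 181 CPM in Trim24-degraded cells and 276, 263 and 261 CPM in Trim24-expressing cells, a log2 fold change of −0.52 (SE 0.06, adjusted p = 6.13e-07). Hmmr had 264, 277 and 294 CPM and 415, 361 and 370.4 CPM (−0.45, SE 0.07, adjusted p = 1.30e-05), and Ccnb1 121, 128 and 143 CPM and 177, 172 and 171 CPM (−0.41, SE 0.07, adjusted p = 5.16e-05). In none of these genes did the groups overlap, and 20.8% of all genes were lower in every degraded library than in every expressing one. Cdc25b, Prc1, Tpx2, Cenpf, Kif11, Ncaph, Smc2, Kif20a, Kif23 and Ccna2 were the others, with log2 fold changes from −0.39 to −0.23. Without replicate 1 of the degraded libraries at 12 h, 7 members were lower and 1 higher, and without trend and robust variance 1 member was left. The summed primitive endoderm markers moved in the same comparison, with 55.5 to 61.9 CPM in Trim24-degraded and 32.1 to 35.3 CPM in Trim24-expressing cells at 12 h, and their part in it was not tested. Mdm2 differed there too, with 722 to 743 CPM in Trim24-degraded and 1118 to 1194 CPM in Trim24-expressing cells, and its part was not tested either. The paper regards its own further changes at 12 h as probably secondary, and reports that live cells decline faster under stress without Trim24. The effect of Trim24 loss at 12 h was also tested against that at 4 h, and 10 members were lower and 2 higher by the adjusted p alone (6.68% and 5.31% of genes). None passed both thresholds in limma or limma-voom, and 5 higher and 24 lower had an unadjusted p under 0.05. Hmmr (−0.51, SE 0.08, adjusted p = 8.80e-05) and Bub1b (−0.49, SE 0.07, adjusted p = 2.99e-05) had the largest of these differences, and Mybl2 and Cdc25a were the 2 higher ones. Without replicate 1 of the Trim24-expressing cells at 4 h 7 members were left, and without trend and robust variance 3. For 2 h and 8 h against 4 h no member passed in limma or limma-voom, with 3 higher and 4 lower members at an unadjusted p under 0.05 for 2 h, and 0 and 7 for 8 h. Across the times, Hmmr had 345, 356 and 306 CPM at 2 h, 309, 338 and 307 at 4 h, 199, 219 and 211 at 8 h, then 264, 277 and 294 at 12 h in Trim24-degraded cells. The comparison of 12 h with 8 h in Trim24-expressing cells and that of Trim24 loss at 12 h use the same Trim24-expressing libraries.

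The RING experiment asked whether the ligase domain of Trim24 is needed. Its Trim24-degraded libraries were the deepest, with 24492233 to 33893100 reads. The Trim24-expressing ones had 16669410 to 21072810 and the ligase-null ones 18345070 to 22360998, and the part of depth was not tested. On loss of Trim24 there, 9 members were higher by the adjusted p alone and none lower (9.86% and 3.73% of genes), led by Mad2l1, Ndc80 (0.30) and Ncapg (0.29). The member median was 0.06 in the deposited values and −0.003 after quantile normalization, so no direction of the whole group can be given. Mad2l1 was also high in ligase-null cells, at 96.9, 79.1, 82.5 and 94.9 CPM, a log2 fold change of 0.44 (SE 0.07, adjusted p = 1.64e-06) against Trim24-expressing cells and of −0.11 (95% interval −0.24 to 0.01) against Trim24-degraded cells.

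Pttg1, on chromosome 11 from 43420250 to 43426251, which encodes securin, the inhibitor of separase, set the ligase-null cells apart. It had 73.1, 63.6, 61.7 and 63.4 CPM in ligase-null cells, against 125, 124, 127 and 123 CPM in Trim24-degraded and 117, 125, 117 and 106 CPM in Trim24-expressing cells. Its log2 fold change was −0.93 (SE 0.06, adjusted p = 1.07e-14) against the degraded and −0.83 (SE 0.06, adjusted p = 8.40e-13) against the expressing cells, and it was the only member past both thresholds in either comparison. By that rule 1.85% of genes were lower and 4.83% higher than in degraded cells, and 2.28% and 4.67% than in expressing cells. Loss of Trim24 itself left Pttg1 at 0.10 (adjusted p = 0.15) in the same experiment. By the adjusted p alone, 33 members were lower and 0 higher in ligase-null than in Trim24-degraded cells (23.3% and 12.9% of genes), and 17 were lower and 2 higher than in Trim24-expressing cells (15.6% and 11.7%). The 2 comparisons share the ligase-null libraries, and without their replicate 1 the second count was 27 lower and 2 higher. That replicate stood apart from the others. Squared differences between pairs of ligase-null libraries, relative to read sampling over well-covered genes, were 5.4 to 7.0 with replicate 1 and 2.6 to 3.3 without it. Kif20a, with 243, 219, 219 and 219.8 CPM in ligase-null cells, 333, 320.1, 310.0 and 316 CPM in Trim24-degraded and 317, 315, 288 and 293 CPM in Trim24-expressing cells, came next (−0.51 against degraded cells). Cdc25b had 19.2, 16.3, 15.4 and 17.3 CPM in ligase-null, 22.3, 24.1, 24.1 and 23.8 CPM in Trim24-degraded and 25.4, 23.3, 26.4 and 22.05 CPM in Trim24-expressing cells (−0.46 against degraded cells). The summed primitive endoderm markers were 89.3 to 96.8 CPM in ligase-null cells, 17.1 to 18.9 CPM in Trim24-degraded and 12.9 to 15.4 CPM in Trim24-expressing cells. The summed fibroblast markers were 13.4 to 14.0 CPM, 26.7 to 28.3 CPM and 26.7 to 30.6 CPM in the same groups. The part of either in these differences was not tested.

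**Figure D5:**
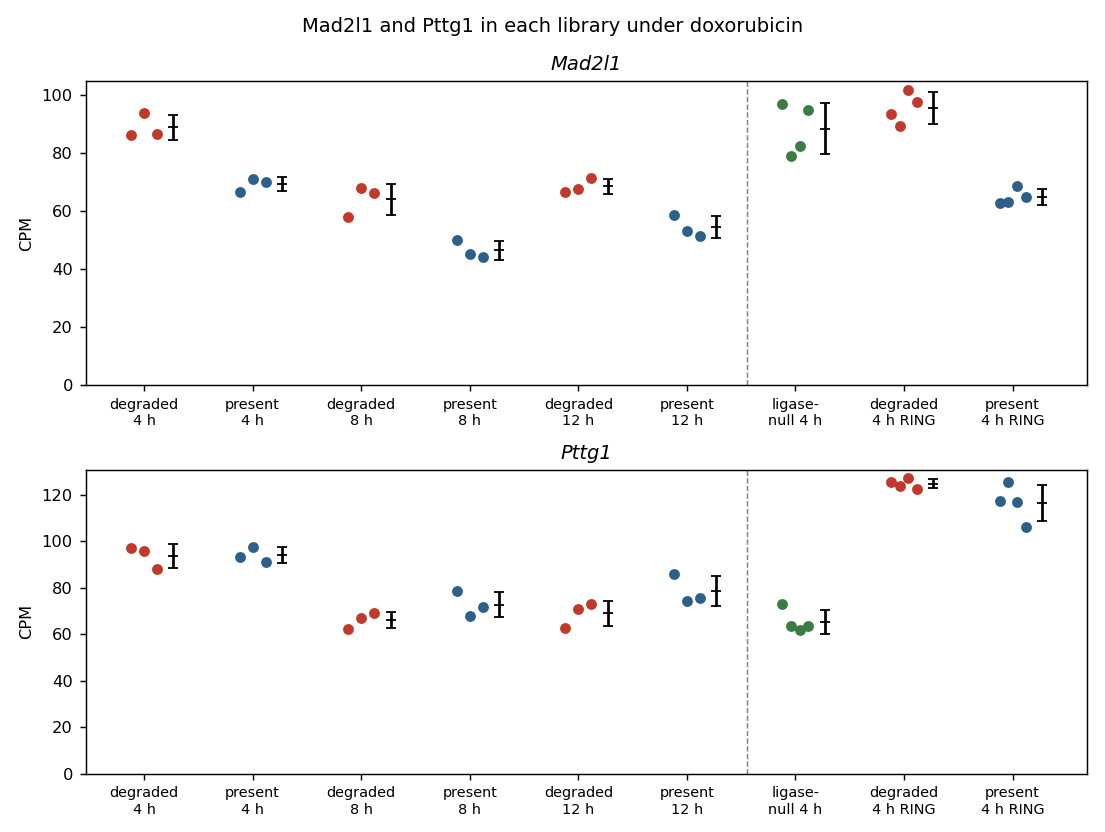
CPM of Mad2l1 (top) and Pttg1 (bottom) in each library under doxorubicin (points) with group mean and SD beside them (n = 3 in the time course, n = 4 right of the dashed line in the RING experiment); red is Trim24-degraded, blue Trim24-expressing and green ligase-null. Mad2l1 is higher in each red group than in the blue group to its right, and Pttg1 is lower in the green group than in the red and blue groups of the RING experiment.

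Other genes of the mitotic machinery, listed by function, were tested in the same way at 8 h of activation in Trim24-expressing cells. Of 37 further kinetochore and centromere genes 9 fell and 0 rose, by limma with both thresholds, among them Oip5 (−1.58), which takes part in loading Cenpa. Of 16 genes of cohesin, condensin II and chromosome separation 8 fell and 0 rose, led by the cohesin subunit Rad21 (−1.95) and sororin, Cdca5 (−1.45). Of 30 genes of the anaphase-promoting complex and mitotic entry 12 fell and 0 rose, led by Fzr1 (−2.24) and Fbxo5 (−2.22), an activator and an inhibitor of that complex. Those lists had medians of −0.46, −0.76 and −0.40, and 18.3% of all genes fell.

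The 33 further spindle, motor and cytokinesis genes were mixed, with 12 fallen and 4 risen: Racgap1 (−2.0), the partner of Kif23 in centralspindlin, and Nusap1 (−1.98) fell, while Fam83d (2.56) and Ckap2 (1.37) rose. Of 12 genes listed for the DREAM and MuvB complex, 2 rose, Rb1 (3.43) and Rbl2 (2.54), and 2 fell, E2f4 (−1.32) and Lin37 (−0.90). The shares of all genes were 27% and 18.3%, so neither share of the list stands above the background. Rb1 is a pocket protein like Rbl2 but is not a subunit of the complex. Of 14 p53 targets of G2 arrest 9 rose and 1 fell (27% of all genes rose), led by Plk2 (3.30), Btg2 (2.86), Rgcc (2.70) and Rprm (2.39). DNA replication genes, a list from outside mitosis, had a median of −0.72 with 19 of 40 fallen and 1 risen (18.3% and 27% of all genes), led by Ccne1 (−2.11) and Cdt1 (−1.51), beside −0.74 for the mitosis genes. At 4 h their median was −0.13, and at 12 h −0.90 where the mitosis genes stood at −0.61. From 8 to 12 h, 13 of the 40 replication genes were lower and 2 higher by the adjusted p alone (14.6% and 16.8% of all genes). In ligase-null against Trim24-degraded cells 34 of 40 were lower and 1 higher (23.3% and 12.9%), with a median of −0.32 beside −0.21 for the mitosis genes. The differences between these lists were not tested.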

How the data were processed

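RNA was sequenced from 49 libraries (total RNA, stranded kit). Per the methods, the authors aligned reads to mm10 with STAR, where a read matching several places was placed at random, and counted them with featureCounts over protein-coding GENCODE genes, leaving out names that begin with Gm. The deposited values are log2 CPM, which the authors made with edgeR (TMM scaling, prior count of 8). Counts were recovered from them as whole reads (100% of values came within 0.01 of a whole number), and CPM is the deposited value with the prior removed. No pooled column and no fold change of the authors was used.

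Groups came from the sample labels. A gene was kept if the number of libraries over the floor by more than 0.5 (log2) reached the size of the smaller group, and all 49 members passed in every comparison. Each comparison was fitted on the deposited log2 values with limma 3.58.1 in R 4.3.3 (trended and robust variance), with Benjamini-Hochberg adjustment over all genes tested. Fold changes are on the log2(CPM + prior) scale, which understates changes of low genes. Calls needed adjusted p below 0.01 together with 0.75 or more on the log2 scale. Libraries are labelled as biological replicates, and none were duplicates. The fits of some of the comparisons were tested on simulated data, for calls at both thresholds together. Changes as small as those on Trim24 loss were not simulated, and calls by the adjusted p alone were not tested in this way.

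Named genes were Aurka, Plk1, Ccnb1, Cdk1, Cdc20, Top2a, Mybl2 and Foxm1, up to 10 called members with the largest change per comparison, members described by role, and up to 4 genes per further list. The members and lists were chosen with earlier results of these data known. Promoters came from RefSeq (GRCm38.p6) and gene positions from GENCODE M21 on GRCm38, not the release the authors counted with.

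The alternatives comprised limma-voom (recovered reads), quantile normalization, median centring, a prior count of 2, no filter, no trend or robust fit, all groups in the fit, a replicate block and leaving out each library.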

Additional observations from a re-analysis of the deposited data

Results flagged for a closer look

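Pttg1 stood at 73.1 CPM in replicate 1 of the ligase-null cells, apart from the other 3 libraries of its group, with a gap to its nearest neighbour of 0.837 of the group's range, above the critical value of 0.829. Of 18 groups of 4 values tested, 1 stood out in this way, and chance gives about 1 in 20. Those groups covered only Mad2l1, Pttg1, Ect2, Spc25, Cdc25b and Bub1b in the RING experiment, so the count does not hold for all members. Kif20a, not tested in this way, had 243 CPM in the same replicate 1 and 219, 219 and 219.8 CPM in the other ligase-null libraries. Replicate 1 also differed most from the others over the well-covered genes, so standing apart there is not particular to Pttg1.

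The effect of Trim24 loss at 12 h of doxorubicin differed from that at 4 h, by limma's test of the difference, in 12 members. The difference (12 h minus 4 h, log2 scale) was −0.51 for Hmmr (adjusted p = 8.8e-05), −0.49 for Bub1b (2.99e-05), −0.42 for Ect2 (0.00251), −0.41 for Ccnb1 (0.000779) and −0.41 for Cenpf (0.000172). Prc1 (−0.39), Tpx2 (−0.37), Smc2 (−0.36), Ncaph (−0.34) and Kif11 (−0.33) were also below 0, and Cdc25a (0.31) and Mybl2 (0.30) above. The calls of Cdc25a and Mybl2 were lost on leaving out most of the single libraries, and those of Kif11, Ect2 and Ncaph on leaving out some.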

How the results depend on the processing

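Under quantile normalization the members called were 3 at 4 h (1 higher, 2 lower), 12 at 8 h (1 and 11), 13 at 12 h (3 and 10), 0 for 4 h against 2 h, 4 for 8 h against 4 h and 2 for 12 h against 8 h. It turned round Bub1 at 4 h (0.00014), Bub1b (0.0490), Cenpa (0.0438), Ncapg (0.0669) and Smc4 (0.0599) at 8 h, Bub1 (0.0915), Cdc20 (0.17) and Smc4 (0.17) at 12 h, Bub1b (0.12), Ccna2 (0.00546), Hmmr (0.0334) and Ncapg (0.0477) for 8 h against 4 h, and Top2a in ligase-null against Trim24-degraded cells (0.0142). Median centring turned round Cenpe at 8 h (−0.0196). Over all genes, the calls higher and lower at 8 h were 4452 and 3016 in the deposited scaling, 3228 and 3656 after quantile normalization and 3622 and 4277 after median centring, and at 12 h 4964 and 3762, 3789 and 4415, and 4172 and 4905. At 4 h they were 2039 and 915, against 1570 and 1366 after quantile normalization, for 8 h against 4 h 2747 and 1272, against 1845 and 1597, and in wild type 1315 and 373, against 897 and 569. They were 476 and 105 at 2 h, against 382 and 154, and 1216 and 334 for 4 h against 2 h, against 939 and 510. limma-voom on the recovered reads called 6, 25 and 25 members at 4, 8 and 12 h. Leaving out single libraries gave 1 to 2 members called for 4 h against 2 h and 1 to 2 for 12 h against 8 h. Without trend and robust variance, the members past the adjusted p alone on Trim24 loss were 0 at 4 h, 0 at 8 h, 1 at 12 h and 2 in the RING experiment. Other counts by the adjusted p alone that moved by over 1.5 times, beside the count in the report, were 0 without a filter, 0 without trend and robust variance and 5 with all groups in the fit for the 3 members at 2 h, 13 without a filter and 11 without trend and robust variance for the 23 of 4 h against 2 h, and 9 without trend and robust variance for the 22 of 12 h against 8 h. For Trim24 loss they were 1 without a filter and 1 with all groups for the 4 members at 4 h, 8 with median centring and 7 with all groups for the 3 at 8 h, and 3 without trend and robust variance for the 12 of 12 h against 4 h. The 19 of wild type became 11 with quantile normalization, 7 without a filter and 1 without trend and robust variance, the 19 of ligase-null against Trim24-expressing cells 35 with median centring and 10 without trend and robust variance, and the 33 against Trim24-degraded cells 20 with quantile normalization and 17 without trend and robust variance. With the replicate number as a block no count of called members changed, and the 2 h count by the adjusted p alone became 9 (1 higher, 8 lower). No comparison with 3 or more pairs had a correlation over 0.1 in every same-numbered pair, so the numbers were not taken to pair libraries. Each library correlated best with its own number only for Trim24 loss at 4 h among comparisons with 3 or more pairs. No paired analysis was possible for the ligase-null comparisons because those groups share fewer than 2 numbers. Depth limits the lowest members most, and the wild-type groups have 2 libraries each.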
